A study of Mus musculus with 109 samples.

Results

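The axon injury and regeneration genes are Sprr1a, Gap43, Sox11, Ecel1, Gal, Gadd45a, Chac1, Klf6 and Adcyap1, 9 of the 37315 genes in the count table. They were chosen by name, with earlier results of these data known, and their rows were read in every treatment, day and genotype. RNA was sequenced from 109 whole mouse retinas of 64 mice after an injection into the vitreous of 2 µL of phosphate-buffered saline (PBS), of tumor necrosis factor (TNF, 0.05 µg/µL), of interleukin 1 alpha (IL1A, 0.1 µg/µL) or of both cytokines (IL1A+TNF). The comparisons ask how the cytokines, alone and together, changed the genes, and whether loss of Sarm1, an NADase that carries out axon degeneration, altered that change.

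The mice were C57BL/6J wild-type animals (WT) and Sarm1-/- animals of a constitutive knockout line from the Jackson Laboratory, aged 2 to 6 months and of both sexes. In batch 1, all WT, the retinas at day 2 were 31 PBS, 10 IL1A+TNF, 9 IL1A and 8 TNF, with 7 PBS and 6 TNF retinas at day 14 and 6 PBS and 9 TNF retinas at day 35. Batch 2 held day 2 retinas only, 5 WT PBS, 6 WT IL1A+TNF, 6 Sarm1-/- PBS and 6 Sarm1-/- IL1A+TNF. PBS retinas were mostly the other eye of a cytokine-injected mouse, and 45 of the 64 mice gave both eyes. There was no uninjected retina, so the baseline here is a saline-injected eye.

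Total counts ran from 30014757 to 79064488 per retina, with a median of 39374202. Sarm1 lay between 26.0 and 52.9 CPM (counts scaled by library size, per 1000000) in the 12 Sarm1-/- retinas and at 76.2 CPM or more in all 97 WT retinas. Summed markers of other tissues set some retinas apart. Retinal ganglion cell markers summed to under 300 CPM in 2 retinas only, the IL1A+TNF eyes of the female Sarm1-/- mice 61924 and 61926. Cornea and conjunctiva markers summed to over 50 CPM in 5 retinas and lens markers to over 1000 CPM in 11 retinas. Calls of the 9 genes that were lost without those retinas are named beside the results.

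An adult retinal ganglion cell sends its axon through the optic nerve, and when that axon is damaged the cell switches on stress and growth genes, some of which are held to favor regrowth and others death. The DLK and JUN kinase cascade, ATF3, SOX11 and C/EBP factors are known parts of this switch, and small proline-rich protein 1A, galanin and the peptidase ECEL1 are widely used to mark injured neurons. In whole retina RNA, fewer cells of a type and less RNA per cell cannot be told apart, and several of these genes are made by other retinal cells too.

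At day 2 after IL1A+TNF, 7 of the 9 genes were higher than in PBS retinas of batch 1, when 24.9% of the 19548 genes tested were higher. Those 7 were Sprr1a, Ecel1, Gal, Sox11, Klf6, Chac1 and Gadd45a. The median log2 fold change was 0.569 over the 9 genes and -0.023 over all genes tested. Every fold change was tested with limma on voom-weighted counts, and FDR is the Benjamini-Hochberg adjusted p over all genes in the fit, called when under 0.05. IL1A alone raised 4 of the 9 genes, Ecel1, Gal, Sox11 and Klf6, against 12.0% of genes higher. TNF alone changed 0 of the 9 genes by limma, edgeR or DESeq2, against 0.655% of genes called in either direction, and 2 of them, Ecel1 and Chac1, had an unadjusted p under 0.05. The 3 cytokine comparisons share the same PBS retinas.

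**Figure D1:**
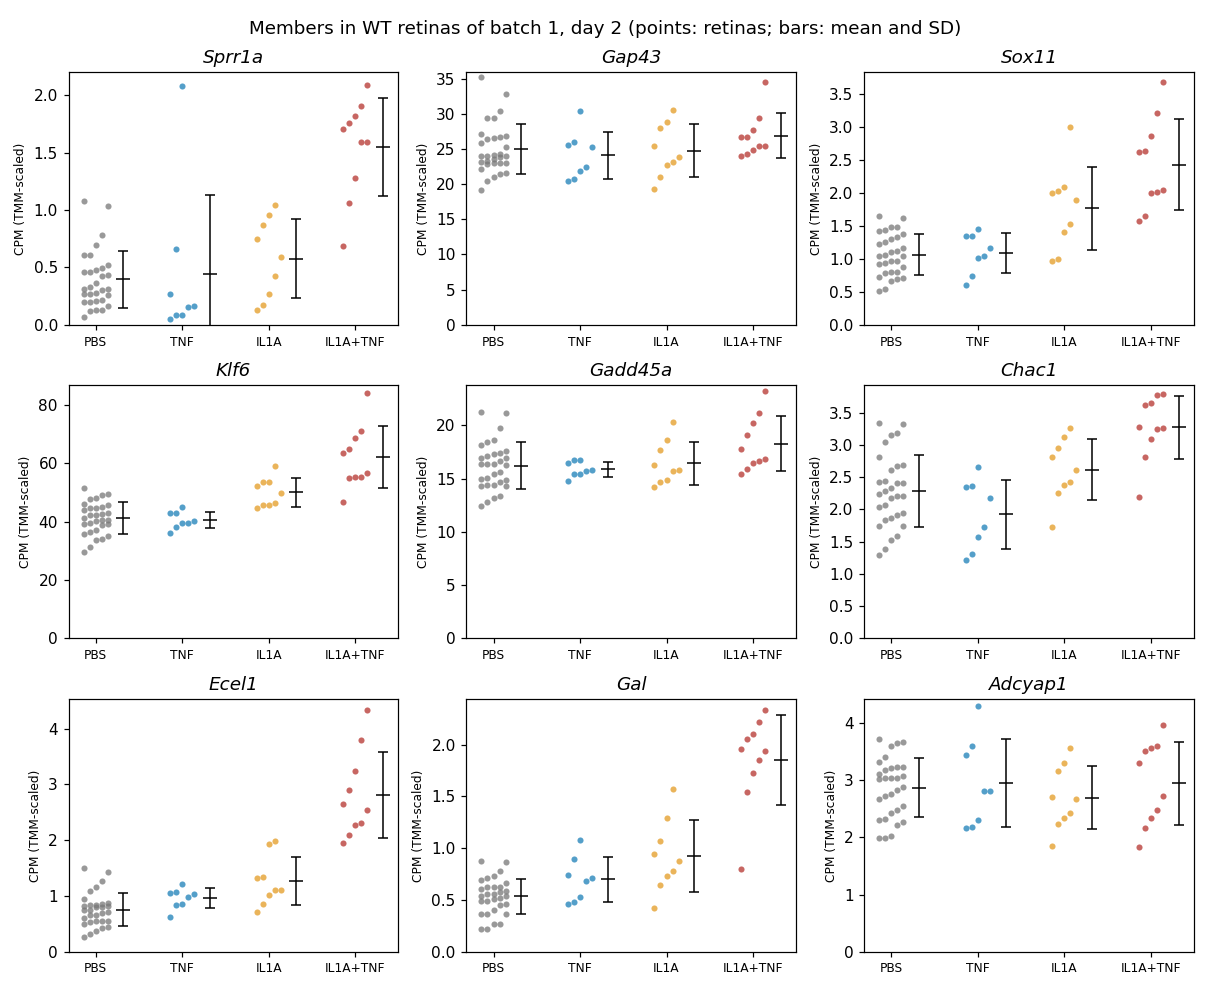
Level of each of the 9 genes (vertical axis, TMM-scaled CPM) in every WT retina of batch 1 at day 2, by treatment (horizontal axis). Points are retinas and bars are the mean and SD of 31 PBS, 8 TNF, 9 IL1A and 10 IL1A+TNF retinas. Ecel1 after IL1A+TNF, at 1.95 to 4.33 CPM, lies above all 31 PBS retinas, while the Gap43 and Adcyap1 groups overlap throughout.

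Markers of cell types moved in the same comparison, and their part in the changes of the 9 genes was not tested. Of 12 ganglion cell markers, 11 were lower after IL1A+TNF (median log2 fold change -0.259), and their sum ran from 665 to 828 CPM against 719 to 1010 CPM in PBS retinas. All 7 amacrine cell markers were lower and all 8 microglia and myeloid markers higher, the latter summing to 377 to 898 CPM against 60.4 to 213 CPM. All 5 neutrophil and monocyte markers tested were higher (median log2 fold change 3.594), as were 6 of 7 endothelial and pericyte markers (0.596). Rod markers were lower in 4 of 5 (-0.772, with a median sum of 22280 CPM against 41750 CPM), and pigment epithelium and choroid markers in 4 of 6 (-1.638). Cornea and conjunctiva markers were lower in 4 of 6 tested (-1.214), and of 7 lens markers tested 0 were called. Of 6 Müller glia and astrocyte markers 3 were higher and 2 lower, with a median sum of 1737 CPM against 2503 CPM. Over all genes tested 25.5% were lower and 24.9% higher. After IL1A alone, 9 of 12 ganglion cell, 6 of 7 amacrine cell and 4 of 5 rod markers were lower, when 9.45% of genes were. In the same retinas all 8 microglia and myeloid markers, 4 of 5 neutrophil and monocyte markers (median log2 fold change 3.337) and 6 of 7 endothelial and pericyte markers were higher. No listed marker of these types was at 0 in every retina of either group.

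Sprr1a encodes a small proline-rich protein best known from the cornified envelope of skin and from neurons with cut axons. The gene lies at chr3:92483952-92485895 on the minus strand (GRCm38). PBS retinas of batch 1 at day 2 held 0.0711 to 1.08 CPM with a median of 0.315 CPM, from 3 to 39 counts each. After IL1A+TNF the lowest, median and highest values were 0.689, 1.65 and 2.09 CPM. The groups overlapped, but 8 of the 10 treated retinas exceeded the highest PBS retina. Sprr1a rose by a log2 fold change of 2.11 ± 0.25 (SE, FDR = 1.99e-10), the largest of the 9 genes, and was higher in the treated eye of all 8 mice with both eyes. After IL1A alone it ran from 0.126 to 1.04 CPM (log2 fold change 0.54 ± 0.33, FDR = 0.27). TNF retinas held 0.0491 to 0.657 CPM apart from mouse 60585 at 2.08 CPM, the only day 2 retina of batch 1 with cornea markers over 50 CPM, at 63.4 CPM (log2 fold change -0.47 ± 0.43, FDR = 0.878). Without that retina the log2 fold change was -1.02 (FDR = 0.685). Over all alternatives it ran from -1.02 to 0.11, on either side of 0.

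The promoter of Sprr1a is shown because it held 2 matches to the AP-1 motif TGANTCA, the letters bound by JUN and ATF3 family dimers. RefSeq promoters (GRCm38.p6) were found for 8 of the 9 genes, as 9 entries since Adcyap1 has 2. Each was searched on both strands over 300 bases, from 250 before the start to 50 after it. Bases 250 to 21 before the start are printed. The capitals mark the matches, 146 and 116 bases before the start. The motif occurred in 7.81% of all 32851 promoters of the same length and in none of the other 8 entries. The match describes the letters only and does not show binding.
Sprr1a promoter, chr3:92485902-92486131, minus strand: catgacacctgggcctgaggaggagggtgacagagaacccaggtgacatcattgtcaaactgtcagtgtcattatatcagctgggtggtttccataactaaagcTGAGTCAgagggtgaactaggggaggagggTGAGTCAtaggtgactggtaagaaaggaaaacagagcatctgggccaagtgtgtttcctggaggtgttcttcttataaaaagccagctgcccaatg

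Gap43, growth-associated protein 43 of the growth cone membrane (chr16:42248442-42340651, minus strand), had the highest level per length of the 9 genes, at 16.4 CPM per kilobase of exon in PBS retinas at day 2. It ran from 19.2 to 35.2 CPM in PBS retinas and from 24.0 to 34.5 CPM after IL1A+TNF, inside the PBS range. Its log2 fold change was 0.10 ± 0.07 (95% interval -0.03 to 0.24, FDR = 0.185), and 4 of 8 treated eyes were higher than the other eye. The intervals after IL1A, -0.15 to 0.13, and after TNF, -0.20 to 0.10, bound any change in those groups to a similar size.

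Per length, Klf6 at 9.39 and Gadd45a at 9.20 CPM per kilobase followed Gap43 in PBS retinas. Chac1 came next at 1.40, then Adcyap1 at 0.759, Gal at 0.678, Sprr1a at 0.490, Ecel1 at 0.215 and Sox11 at 0.128 CPM per kilobase. The SDs of Klf6 and Gadd45a, 1.24 and 1.26 CPM per kilobase, exceeded the gap between them, and so did those of Adcyap1, Gal and Sprr1a for their neighbors in that order. The genes that rose most after IL1A+TNF, Sprr1a, Ecel1 and Gal, were among the least abundant of the 9 in the saline eye.

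Sox11 is an SRY-box transcription factor of developing neurons that is re-expressed in injured ones (chr12:27334264-27342574, minus strand). It held 0.505, 1.04 and 1.65 CPM (lowest, median, highest) in PBS retinas and 1.58, 2.34 and 3.67 CPM after IL1A+TNF. Of the 10 treated retinas 9 lay above every PBS retina, and Sox11 rose by 1.14 ± 0.13 on the log2 scale (FDR = 1.2e-10). IL1A alone gave 0.968 to 2.99 CPM with 5 of 9 retinas above all PBS values, a log2 fold change of 0.71 ± 0.15 (FDR = 0.000254). TNF retinas, at 0.606 to 1.45 CPM, stayed within the PBS range (log2 fold change 0.05 ± 0.18, FDR = 0.979).

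Klf6, a Krüppel-like zinc finger factor that promotes axon growth in fish and mouse neurons, lies at chr13:5861482-5870394 on the plus strand. Its lowest, median and highest levels were 29.7, 41.2 and 51.7 CPM in PBS retinas and 46.6, 60.1 and 83.9 CPM after IL1A+TNF, where 9 of 10 retinas passed the highest PBS value. The log2 fold change was 0.57 ± 0.06 (FDR = 2.33e-11). After IL1A, Klf6 was between 44.5 and 58.9 CPM and rose by 0.29 ± 0.07 on the log2 scale (FDR = 0.000583). With TNF alone it was 36.0 to 45.0 CPM, a log2 fold change of -0.01 ± 0.07 (FDR = 0.986).

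Gadd45a, a growth arrest and DNA damage protein that signals to stress kinases, lies at chr6:67035096-67037457 on the minus strand. It shares up to 337 exon bases with E230016M11Rik on the other strand, and because the strand setting of the counting is not given in the sources used here, reads of the pair cannot be told apart. Levels were 12.4 to 21.3 CPM in PBS retinas and 15.5 to 23.2 CPM after IL1A+TNF, with 1 of 10 retinas above the PBS range. Its rise, 0.17 ± 0.06 on the log2 scale (FDR = 0.0172), was the smallest of the 7. Without the IL1A+TNF retina of mouse 60212 the log2 fold change was 0.13 (FDR = 0.0905), which ended the call, and over the other mice left out FDR was 0.00495 or more. IL1A gave 0.02 ± 0.07 (FDR = 0.854) and TNF gave -0.02 ± 0.07 (FDR = 0.97) on the log2 scale.

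Chac1, a glutathione-degrading enzyme of the ATF4 and CHOP branch of the unfolded protein response, lies at chr2:119351229-119354381 on the plus strand. It held 1.30, 2.23 and 3.34 CPM (lowest, median, highest) in PBS retinas and 2.19, 3.27 and 3.80 CPM after IL1A+TNF. The groups overlapped widely, with 4 of 10 treated retinas above the PBS range, and 7 of 8 treated eyes were higher than the other eye of the mouse. Chac1 rose by 0.53 ± 0.11 on the log2 scale (FDR = 2.95e-05). Levels after IL1A were 1.73 to 3.26 CPM (log2 fold change 0.22 ± 0.12, FDR = 0.191), and after TNF 1.22 to 2.66 CPM (-0.28 ± 0.14, unadjusted p = 0.0494 by limma, FDR = 0.651). In 7 of 8 mice the TNF eye held less Chac1 than the PBS eye.

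The Chac1 promoter is shown because it held the composite ATF4 and C/EBP motif TGATGCAA, read on the other strand and marked in capitals, 193 bases before the start. That motif was in 0.895% of all promoters and in no other of the 9 entries. Neither the CRE motif TGACGTCA (1.79% of promoters) nor the STAT motif TTCNNNGAA (8.3%) matched any of the 9 entries.
Chac1 promoter, chr2:119350992-119351221, plus strand: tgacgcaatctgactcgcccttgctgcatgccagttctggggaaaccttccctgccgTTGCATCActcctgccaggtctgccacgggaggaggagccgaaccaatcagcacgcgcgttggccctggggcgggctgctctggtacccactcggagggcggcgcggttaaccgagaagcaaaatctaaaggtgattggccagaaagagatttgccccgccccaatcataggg

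Ecel1, also called damage-induced neuronal endopeptidase, is a membrane metalloprotease induced in neurons after axon injury (chr1:87147655-87156521, minus strand). It held 0.269, 0.746 and 1.50 CPM (lowest, median, highest) in PBS retinas and 1.95, 2.60 and 4.33 CPM after IL1A+TNF. Of the 9 genes only Ecel1 separated these groups in full. The share of all genes that separate these groups, or those of batch 2, was not counted. It rose by 1.93 ± 0.14 on the log2 scale (FDR = 4.23e-17), and the treated eye of the 8 mice with both eyes held 2.09 to 11.8 times the level of the PBS eye. After IL1A its values were 0.720, 1.12 and 1.99 CPM, and its log2 fold change was 0.79 ± 0.17 (FDR = 0.000427), with 7 of 7 treated eyes higher than the other eye. TNF retinas held 0.631 to 1.21 CPM, all inside the PBS range (log2 fold change 0.42 ± 0.20, unadjusted p = 0.0375 by limma, FDR = 0.607).

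Gal encodes the neuropeptide galanin, which sensory neurons make after axotomy (chr19:3409915-3414544, minus strand). Its lowest, median and highest levels were 0.221, 0.541 and 0.881 CPM in PBS retinas and 0.803, 1.95 and 2.34 CPM after IL1A+TNF. All treated retinas but that of mouse 60780, the lowest, lay above every PBS retina, and Gal rose by 1.80 ± 0.15 on the log2 scale (FDR = 3.99e-15). IL1A gave 0.422 to 1.58 CPM with 4 of 9 retinas above the PBS range (log2 fold change 0.77 ± 0.18, FDR = 0.00105). TNF gave 0.457 to 1.08 CPM with 2 of 8 above it (0.39 ± 0.21, FDR = 0.693).

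Adcyap1 encodes the peptide PACAP, a neuroprotective peptide of the vasoactive intestinal peptide family (chr17:93199017-93206537, plus strand). It held 1.99 to 3.71 CPM in PBS retinas and 1.84 to 3.97 CPM after IL1A+TNF, with 1 treated retina above and 1 below the PBS range. Its log2 fold change was 0.03 ± 0.11 (95% interval -0.18 to 0.24, FDR = 0.819). IL1A gave -0.10 ± 0.11 (FDR = 0.632) and TNF gave 0.00 ± 0.12 (FDR = 0.999) on the log2 scale.

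Setting the treatments against each other, IL1A+TNF retinas held more Sprr1a, Ecel1, Gal and Klf6 than IL1A retinas, 4 of the 9 genes against 5.39% of all genes higher. The log2 differences were 1.58 ± 0.35 for Sprr1a (FDR = 0.00157), 1.15 ± 0.18 for Ecel1 (FDR = 4.26e-05), 1.03 ± 0.19 for Gal (FDR = 0.000283) and 0.28 ± 0.08 for Klf6 (FDR = 0.0186). With mouse as a fixed block none of these 4 passed (FDR = 0.254 for Ecel1), nor did any other of the 19548 genes in limma, where 2105 had an unadjusted p under 0.05. In that fit the log2 differences were 1.77 for Sprr1a, 0.99 for Ecel1, 1.03 for Gal and 0.20 for Klf6. Without a block, edgeR called 1955 and DESeq2 2318 of all genes. The Klf6 call was also lost without retinas high in lens markers (0.25, FDR = 0.0718). Sox11, at 0.44 ± 0.17, did not differ by the test (FDR = 0.0845). Against TNF alone, IL1A+TNF retinas were higher in 6 of the 9 genes, when 20.0% of genes were higher, with log2 differences from 2.59 ± 0.45 for Sprr1a to 0.58 ± 0.08 for Klf6. Chac1 was in that group at 0.81 ± 0.16 (FDR = 3.27e-05). IL1A exceeded TNF in 3 genes, Sox11 at 0.66 ± 0.21 (FDR = 0.036), Chac1 at 0.50 ± 0.17 (FDR = 0.0429) and Klf6 at 0.31 ± 0.09 (FDR = 0.0185), while 5.39% of all genes did so. With mouse as a fixed block none of these 3 passed (FDR = 0.55 for Chac1) and 1 of the 19548 genes did, with log2 differences of 0.68 for Sox11, 0.56 for Chac1 and 0.15 for Klf6. The Sox11 call was also lost without retinas high in cornea markers (FDR = 0.0528), without a count filter (FDR = 0.0514) and without the sex term (FDR = 0.0543). That of Chac1 was lost without retinas high in lens markers (FDR = 0.12), without a count filter (FDR = 0.066) and in edgeR (FDR = 0.0622).

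Whether the combined effect differed from the sum of the separate effects on the log2 scale was tested as an interaction. It was positive and called for Sprr1a alone, at 2.05 ± 0.56 (FDR = 0.0281), and 1.78% of all genes had a positive call. That call was lost in edgeR (1.31, FDR = 0.205), in DESeq2 (1.38, FDR = 0.132), with mouse as a fixed block (1.86, FDR = 0.498) and without retinas high in lens markers (1.95, FDR = 0.0794). Without the TNF retina high in cornea markers it was 2.64 (FDR = 0.00635), and over all 9 alternatives FDR ran from 0.00635 to 0.498. Ecel1 (0.73 ± 0.27, FDR = 0.119), Chac1 (0.59 ± 0.20, FDR = 0.0784) and Gal (0.64 ± 0.28, FDR = 0.214) had positive values that did not pass.

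**Figure D2:**
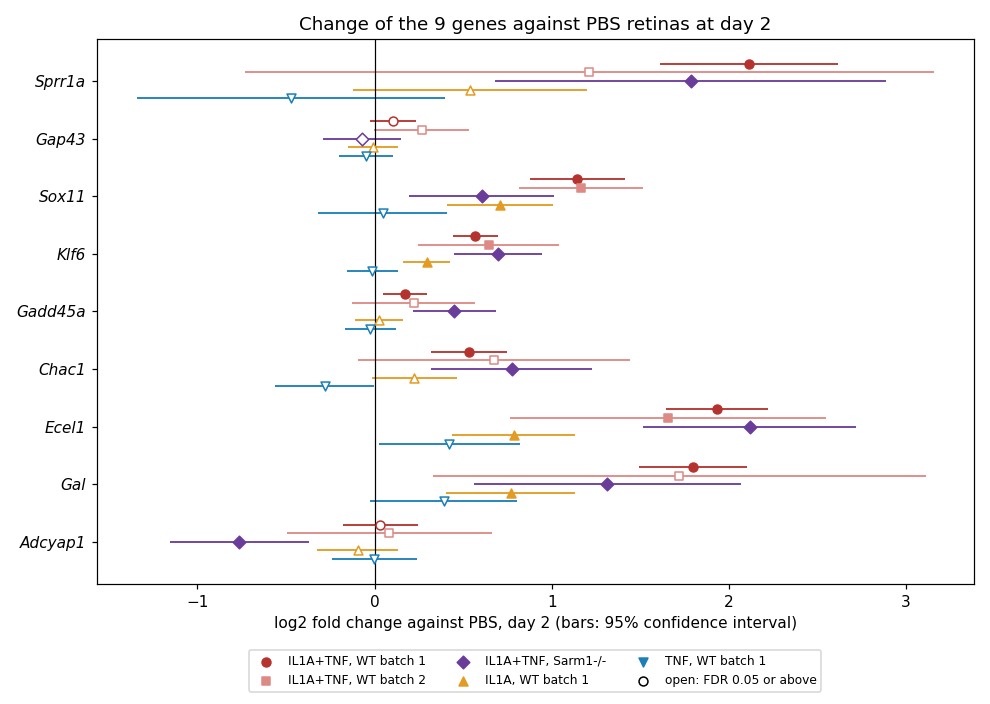
Log2 fold change against PBS retinas at day 2 (horizontal axis) for each of the 9 genes (vertical axis), with 95% confidence intervals as bars. Colors and shapes give the treatment, genotype and batch, and filled marks have FDR under 0.05. Sprr1a, Ecel1 and Gal lie farthest to the right after IL1A+TNF in WT batch 1, at 2.11, 1.93 and 1.80, and TNF alone has no filled mark.

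The WT retinas of batch 2 repeated the IL1A+TNF comparison with 6 treated and 5 PBS retinas. Sox11, Ecel1 and Klf6, 3 of the 9 genes, rose in that batch, when 13.3% of genes were higher. Sox11 was 0.831, 0.928, 0.969, 1.06 and 1.22 CPM in the PBS retinas and 1.62 to 3.05 CPM in the treated ones, with no overlap (log2 fold change 1.17 ± 0.17, FDR = 6.08e-05). Ecel1 was 0.531, 0.680, 0.685, 0.792 and 1.08 CPM after PBS and 1.46 to 3.53 CPM after IL1A+TNF (1.66 ± 0.43, FDR = 0.00901), again without overlap. Klf6 was 36.8, 41.0, 42.5, 45.2 and 45.2 CPM after PBS and 54.9 to 82.2 CPM after IL1A+TNF (0.64 ± 0.19, FDR = 0.0206), and the groups did not overlap. The share of all genes without overlap in batch 2 was not counted. The Klf6 call was lost without mouse 61719, 61720 or 61721 (FDR = 0.0515, 0.0588 and 0.0637).

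Gal also separated in batch 2, at 0.319, 0.492, 0.530, 0.580 and 0.766 CPM after PBS and 1.36 to 2.89 CPM after IL1A+TNF, but did not pass (log2 fold change 1.72 ± 0.67, FDR = 0.0718). How many of all genes separate there was not counted. The fit shares its spread with the Sarm1-/- retinas of the batch, and without the pair of retinas low in ganglion cell markers Gal was called at 1.78 (FDR = 0.00108). FDR ran from 0.00108 to 0.18 over 10 alternatives, with 4 calls, and from 0.113 to 0.217 without each mouse. Sprr1a was 0.174, 0.313, 0.619, 0.727 and 6.23 CPM after PBS against 0.876 to 2.64 CPM after IL1A+TNF (log2 fold change 1.21 ± 0.93, FDR = 0.366). The high PBS value belonged to mouse 61721, whose PBS retina had cornea markers at 141 CPM, and the treated eye of 4 of 5 mice held more Sprr1a than the PBS eye. Without retinas high in cornea markers, both eyes of that mouse among them, the log2 fold change was 1.99 (FDR = 0.134). It ran from 0.61 to 1.96 with 1 mouse left out and from 0.14 to 1.99 over the other alternatives. The difference of the IL1A+TNF effect between batches was called for 0 of the 9 genes and for 0% of the 20328 genes tested in limma, where 523 genes had an unadjusted p under 0.05. None of the 9 had an unadjusted p under 0.05, and the estimate was widest for Sprr1a at -0.88 ± 0.71.

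**Figure D3:**
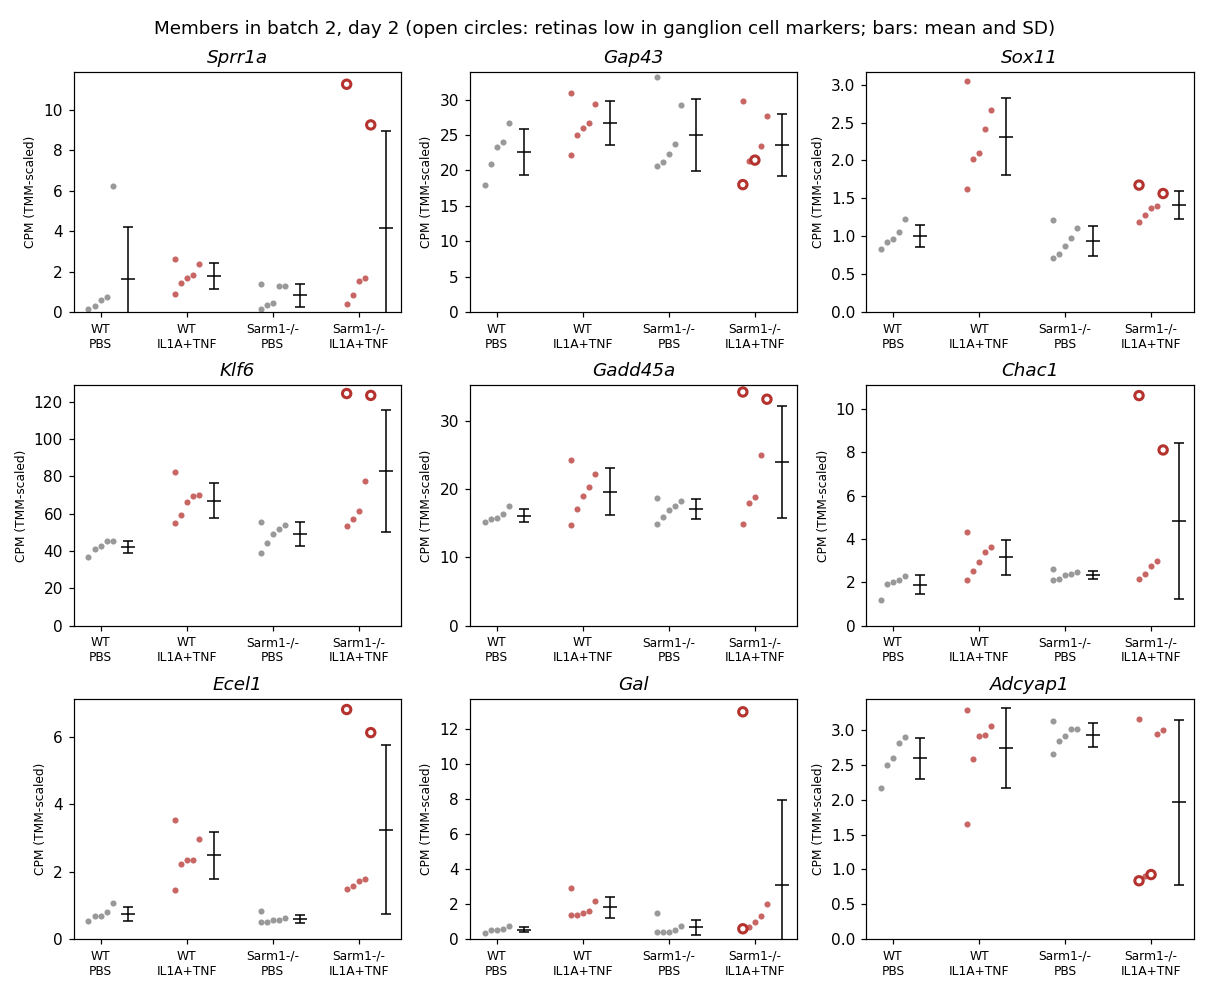
Level of each of the 9 genes (vertical axis, TMM-scaled CPM) in every retina of batch 2, by genotype and treatment (horizontal axis). Points are retinas, bars are the mean and SD (lower ends cut at 0) of 5 or 6 retinas, and open circles are the Sarm1-/- retinas of mice 61924 and 61926. Those open circles are the highest Sprr1a, Ecel1, Chac1, Klf6 and Gadd45a values of the batch.

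In Sarm1-/- retinas, IL1A+TNF raised 7 of the 9 genes, against 21.3% of all genes higher, and Adcyap1 was lower, against 22.2% of genes lower. Ecel1 rose by 2.12 ± 0.30 on the log2 scale (FDR = 1.35e-07), Sprr1a by 1.78 ± 0.55 (FDR = 0.0064), Gal by 1.31 ± 0.38 (FDR = 0.00312) and Chac1 by 0.77 ± 0.23 (FDR = 0.004). Klf6, Sox11 and Gadd45a rose by 0.70 ± 0.13, 0.60 ± 0.21 and 0.45 ± 0.12. Adcyap1 fell by 0.76 ± 0.20 on the log2 scale (FDR = 0.00102), and Gap43 was at -0.07 ± 0.11 (FDR = 0.655). All 12 ganglion cell markers were lower in the same comparison, with a median log2 fold change of -1.266.

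These counts rested in part on the IL1A+TNF eyes of mice 61924 and 61926. In them retinal ganglion cell markers summed to 180 and 156 CPM, and in the other 4 treated Sarm1-/- retinas to 374 to 845 CPM, while amacrine cell markers summed to 202 and 268 CPM against 811 to 1021 CPM. Without both retinas 3 of the 9 genes were called, and with batch 2 fitted alone 4 were called. Over all genes, 4289 were higher and 4479 lower of 20154 with the pair, while 2581 of 20479 were called in either direction without it and 6064 of 19668 in batch 2 alone. The calls lost without them were those of Sprr1a (0.54, FDR = 0.538), Sox11 (0.54, FDR = 0.114), Gadd45a (0.16, FDR = 0.344), Chac1 (0.14, FDR = 0.693) and Adcyap1 (-0.39, FDR = 0.202). Ecel1, Gal and Klf6 kept theirs. Leaving out mouse 61926 alone ended the calls of Sprr1a (FDR = 0.109), Gal (FDR = 0.113) and Chac1 (FDR = 0.106), and leaving out 61924 alone ended those of Gadd45a (FDR = 0.0711) and Chac1 (FDR = 0.0726). The calls of Sox11 and Chac1 were also lost without retinas high in cornea markers (FDR = 0.0566 and 0.1) and without those high in lens markers (FDR = 0.0585 and 0.106). The part of the low neuronal markers in the values of these retinas was not tested.

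Sprr1a was 9.27 and 11.3 CPM in those eyes and 0.417, 0.836, 1.54 and 1.71 CPM in the other 4, against 0.170 to 1.40 CPM in Sarm1-/- PBS retinas. Chac1 was 8.11 and 10.6 CPM against 2.15, 2.38, 2.74 and 2.99 CPM in the other 4. Both eyes thus stood far above the rest of their group, which overlapped the PBS retinas in both genes. Klf6 was 124 and 123 CPM in them against 53.2, 57.1, 61.3 and 77.8 CPM, and Gadd45a was 34.3 and 33.2 CPM against 14.9, 18.0, 18.8 and 25.0 CPM. Ecel1 was 6.13 and 6.82 CPM in the pair and 1.48, 1.56, 1.71 and 1.79 CPM in the other 4, all above the 0.508 to 0.821 CPM of the PBS retinas. The share of all genes that separate these Sarm1-/- groups was not counted.

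Gal did not follow that split. Mouse 61924 held the lowest treated value, 0.588 CPM, and mouse 61926 the highest, 13.01 CPM, in a retina that also had lens markers at 5559 CPM and cornea markers at 222 CPM. The other 4 treated retinas held 0.695, 0.955, 1.31 and 2.02 CPM. The highest Sarm1-/- PBS value of Gal, 1.52 CPM in mouse 61561, also came from a retina with lens markers at 5052 CPM, and the other PBS retinas were at 0.403 to 0.744 CPM.

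Adcyap1 split the treated Sarm1-/- group by another line. It was 0.838, 0.902 and 0.927 CPM in the females 61924, 61765 and 61926, and 2.95, 3.01 and 3.16 CPM in the 3 males. Sarm1-/- PBS retinas of both sexes lay at 2.66 to 3.14 CPM, and WT IL1A+TNF retinas of batch 2 at 1.66 to 3.29 CPM. The female 61765, which was not below the ganglion cell limit, had the lowest sum of retinal ganglion cell markers of the remaining 4 retinas, at 374 CPM against 709 to 845 CPM in the males. Over the WT retinas of batch 1 at day 2, the male minus female difference was called for 0 of the 9 genes by limma, against 0.363% of genes called. Sox11, at -0.31 ± 0.12 on the log2 scale (FDR = 0.305), and Klf6, at -0.11 ± 0.05 (FDR = 0.442), were the only members with an unadjusted p under 0.05.

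Genotype was then compared within each treatment. Between Sarm1-/- and WT PBS retinas 0 of the 9 genes differed by limma, edgeR or DESeq2, none with an unadjusted p under 0.05, while 0.0397% of genes were called. The 95% interval was narrow for Gap43 (-0.12 to 0.29) and Klf6 (-0.07 to 0.40) and wide for Sprr1a (-0.76 to 1.53). In IL1A+TNF retinas Sox11 was lower in Sarm1-/- than in WT by -0.66 ± 0.18 on the log2 scale (FDR = 0.00867) and Adcyap1 by -0.65 ± 0.19 (FDR = 0.0133), 2 of the 9 genes against 10.8% of all genes lower. Within batch 2, treated Sarm1-/- retinas held 1.18 to 1.68 CPM of Sox11 and treated WT retinas 1.62 to 3.05 CPM, which overlap at the edge. All 12 ganglion cell markers were lower in the same comparison (median log2 difference -0.924). Without mice 61924 and 61926 neither passed, with Sox11 at -0.72 (FDR = 0.0684) and Adcyap1 at -0.27 (FDR = 0.531), when 182 of 20479 genes were called. The Sox11 difference thus kept its size without them, and that of Adcyap1 did not. The Adcyap1 call was also lost without mouse 61765, 61924 or 61926 alone (FDR = 0.0685, 0.172 and 0.122). It was lost too in edgeR (FDR = 0.0961), in DESeq2 (FDR = 0.0588) and without retinas high in cornea markers (FDR = 0.0599). In batch 2 alone, where 129 of 19668 genes were called by limma, Adcyap1 did not pass (FDR = 0.282). The Sox11 call held without each mouse (FDR 0.0047 to 0.0403).

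Some of the 9 genes passed in the other direction under alternatives. Chac1 was higher in treated Sarm1-/- than in treated WT retinas in edgeR (0.68, FDR = 0.0384) and DESeq2 (0.67, FDR = 0.0272), and Gadd45a in DESeq2 (0.32, FDR = 0.0433). In limma, Gadd45a passed as higher without mouse 61561, 61564, 61719, 61720 or 62221. Chac1 did so without 61561 or 61765, and Klf6 without 61561 or 62221, with FDR from 0.00448 to 0.0478. All of these fits, edgeR and DESeq2 included, kept the IL1A+TNF eyes of mice 61924 and 61926. Those eyes averaged 9.36 CPM of Chac1 against 2.57 CPM in the other 4 treated Sarm1-/- eyes. Gadd45a averaged 33.74 against 19.17 CPM, and Klf6 123.9 against 62.35 CPM. In limma none of these genes passed as higher without mouse 61924, without mouse 61926 or without both eyes. With every retina in, limma called 4.04% of all genes higher.

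The genotype by treatment interaction was called for Adcyap1 alone, at -0.82 ± 0.22 (FDR = 0.0173), against 7.24% of genes with a negative call. It did not pass in edgeR (-0.67, FDR = 0.119), in DESeq2 (-0.67, FDR = 0.0755), in batch 2 alone (-0.81, FDR = 0.814), with mouse as a fixed block (-0.74, FDR = 0.17) or without mouse 61765, 61924 or 61926 (FDR = 0.0634, 0.269 and 0.187). Nor did it pass without the retinas low in ganglion cell markers (-0.43, FDR = 0.43), high in cornea markers (-0.79, FDR = 0.102) or high in lens markers (-0.86, FDR = 0.101). In batch 2 alone and without the retinas low in ganglion cell markers 0 of all genes were called by limma (1125 and 2511 had an unadjusted p under 0.05), where edgeR and DESeq2 called 181 and 443 of all genes with every retina in. For Sox11 the interaction was -0.55 ± 0.23 (FDR = 0.129). For Sprr1a, Ecel1 and Gal it was -0.05 ± 0.66, 0.26 ± 0.35 and -0.46 ± 0.44, so that differences of either sign remained within the 95% intervals.

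At the later days only TNF was given, and none of the genes passed. At day 14, 0 of the 8 genes tested were called by limma, edgeR or DESeq2, as were 0% of the 18023 genes in limma (838 genes had an unadjusted p under 0.05), and none of the 8 had an unadjusted p under 0.05. At day 35, again 0 of 8 were called by each tool and 0% of the 17821 genes in limma (871 genes had an unadjusted p under 0.05), and Adcyap1 alone had an unadjusted p under 0.05 (log2 fold change -0.22 ± 0.10, p = 0.0421 by limma, FDR = 0.889). Ecel1 was 0.410 to 1.27 CPM after PBS and 0.692 to 0.986 CPM after TNF at day 14, and 0.630 to 1.42 against 0.713 to 1.56 CPM at day 35. Gal was 0.113 to 0.511 CPM after PBS and 0.202 to 0.627 CPM after TNF at day 35. The treated and PBS ranges overlapped for every gene at both days.

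Sprr1a was the gene that did not pass the count filter at those days. At day 14 it was at 0 counts in 3 of 7 PBS and 1 of 6 TNF retinas, and at day 35 in 5 of 6 PBS and 5 of 9 TNF retinas. Taken as 3 counts, the limit that a count of 0 allows was 0.0749 to 0.0956 CPM, for counting error only. Its highest values were 0.140 CPM after PBS and 0.246 CPM after TNF at day 14, and 0.0727 and 0.0318 CPM at day 35.

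**Figure D4:**
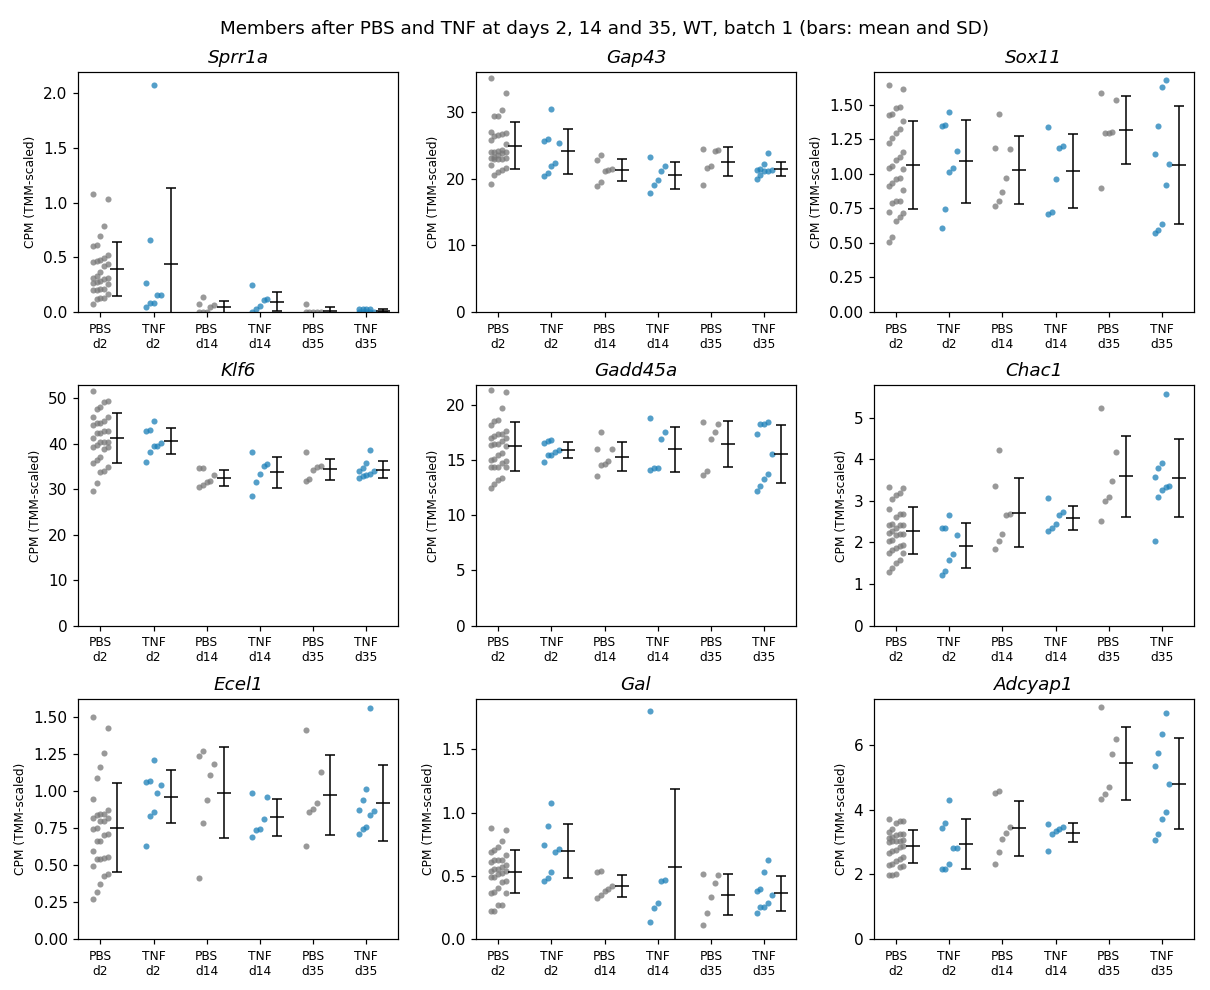
Level of each of the 9 genes (vertical axis, TMM-scaled CPM) in WT PBS and TNF retinas of batch 1 at days 2, 14 and 35 (horizontal axis). Points are retinas and bars are the mean and SD (lower ends cut at 0) of 6 to 31 retinas. Sprr1a is at or near 0 at days 14 and 35, and Adcyap1 after PBS is higher at day 35, 4.33 to 7.17 CPM, than at day 2.

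Among the PBS retinas of batch 1, 5 of the 9 genes differed between days 2, 14 and 35 by a limma F test, when 36.2% of the 19372 genes tested did. That test had no mouse block, although the 7 retinas of day 14 came from 6 mice. Sprr1a was lower by -3.03 at day 14 and -4.17 at day 35 than at day 2 on the log2 scale (FDR = 1.57e-07), a size that depends on counts at or near 0. Klf6 was lower by -0.33 and -0.26 (FDR = 0.000255) and Gap43 by -0.22 and -0.14 (FDR = 0.0329). Adcyap1 was higher by 0.24 at day 14 and 0.92 at day 35 (FDR = 4.49e-08), and Chac1 by 0.24 and 0.65 (FDR = 0.00144). All 6 PBS retinas of day 35, at 4.33 to 7.17 CPM of Adcyap1, lay above the 31 of day 2, at 1.99 to 3.71 CPM. The share of all genes that separate these days was not counted. The saline injection itself, the age of the mice and the day of collection change together in this comparison and cannot be told apart. Myeloid markers summed to 60.4 to 213 CPM in PBS retinas at day 2 and to 23.6 to 32.8 CPM at day 35.

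Other genes of the same pathways were counted after IL1A+TNF in WT batch 1 at day 2, where the median log2 fold change over all genes was -0.023 and 24.9% of genes were higher and 25.5% lower. Of 12 injury transcription factors 9 were higher and 1 lower (median 0.245). The largest changes were those of Atf3, a stress factor of axotomized neurons, at 1.39 ± 0.17 on the log2 scale, Cebpb at 1.11 ± 0.18 and Myc at 1.04 ± 0.17. Of 16 growth cone and cytoskeleton genes 7 were higher and 4 lower (median 0.105), the lower share being close to that of all genes. Here the hyaluronan receptor Cd44 rose by 1.66 ± 0.16, the adhesion molecule Chl1 by 1.23 ± 0.12 and the tubulin Tubb6 by 0.77 ± 0.11.

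Of the peptides and peptide receptors 4 of 11 tested were higher and 3 lower (median 0.131, 14 listed), shares near those of all genes. Crh, corticotropin-releasing hormone, rose by 1.18 ± 0.23 and the receptor Vipr1 by 0.57 ± 0.11, and the enkephalin gene Penk fell by 0.96 ± 0.28 on the log2 scale. Close relatives of the 9 genes had 6 of 11 tested higher and 3 lower (median 0.092, 14 listed). Gadd45b and Gadd45g rose by 1.10 ± 0.15 and 0.86 ± 0.13, beside 0.17 for Gadd45a, and Klf10 rose by 0.88 ± 0.07, beside 0.57 for Klf6. Some genes are named for their tie to a member, after their values were seen. Atf4 and Ddit3 (CHOP), known activators of Chac1, rose by 0.25 ± 0.06 and 0.16 ± 0.05. The galanin receptors Galr1 and Galr3 did not pass the filter and Galr2 was at 0.12 ± 0.14 (FDR = 0.495), and the PACAP receptor Adcyap1r1 was lower at -0.14 ± 0.05 (FDR = 0.0285). Sprr1b, Sprr2a1 and Sprr3, epithelial relatives of Sprr1a, did not pass the filter either.

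For the 3 genes that rose most, the genes with the nearest pattern over the 7 treated groups were taken by the Euclidean distance of their group mean changes from PBS, on the scale of log2(CPM + 1), among 15131 candidates. Nearest to Gal were Inf2 (distance 0.194), Sgpl1 (0.201) and Sdcbp (0.222). Nearest to Ecel1 were Tmem120b (0.316), Mob3c (0.415) and Klf10 (0.419), and nearest to Sprr1a were Igf2bp2 (0.369), Klf11 (0.377) and Hkdc1 (0.387). The distances cover group means of 6 to 10 retinas and include the retinas that stand apart. The added 1 CPM shrinks the changes of genes at low levels. After IL1A+TNF in WT batch 1 Sprr1a entered at 0.87 and Gal at 0.886, beside limma log2 fold changes of 2.11 and 1.80. Genes near them in distance therefore need not share their fold changes.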

How the data were processed

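Poly(A) RNA of whole retinas was made into libraries with the KAPA mRNA HyperPrep kit and sequenced as paired ends. The deposited values are raw counts of reads per Ensembl gene, which per the labels the authors made with STAR 2.7.9a and featureCounts of Subread 2.0.1 on mm10. The strand setting of the counting is not given in the sources used here. All sample columns were matched to their labels, leaving 0 unused.

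Here genes were filtered with filterByExpr (minimum count 10), and voom and duplicateCorrelation were run in 2 rounds. The rest of the model followed the methods of the study, with TMM scaling in edgeR 4.0.16, limma 3.58.1 in R 4.3.3, treatment or group and sex (and batch, where both batches entered) as terms, and mouse as a random block. Days were fitted separately, except in the F test over the PBS retinas, which had day and sex as terms and no block. Levels are TMM-scaled CPM. DESeq2 1.42.0, Python 3.11.15 and matplotlib 3.10.9 were also used, and the limma fits of IL1A+TNF against PBS in WT batch 1 and in Sarm1-/- were tested on simulated data.

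Samples were paired by the mouse numbers of the labels, since both eyes of a mouse carry the same number. The correlation within mouse was 0.0515 at day 2, 0.284 at day 14, 0.0794 at day 35, 0.00525 over both batches at day 2 and -0.0763 in batch 2. Retinas are separate samples, but p-values measure the spread between these retinas only.

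The 9 genes and all lists were chosen with earlier results of these data known. By rule the text names the 9 genes, up to 3 called genes with the largest change in each other list, the 3 nearest patterns of the 3 members with the largest change, and Sarm1. Atf4, Ddit3, Galr1, Galr2, Galr3, Adcyap1r1, Sprr1b, Sprr2a1 and Sprr3 are named outside that rule, after their values were seen. Alternatives were RLE scaling, no filter, edgeR, DESeq2, no sex term, no or a fixed mouse block, batch 2 alone and each mouse left out. For mean levels the alternative was CPM on library totals without TMM. The limits on marker sums (CPM on library totals), and the fits without the retinas beyond them, were chosen after seeing the data. Positions are GRCm38 (the assembly of mm10) and promoters come from RefSeq.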

Additional observations from a re-analysis of the deposited data

Results flagged for a closer look

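Each of the 9 genes was looked at in each of 11 groups of 5 to 10 retinas for a retina whose gap to the next value is large for the range of its group. Of 99 such sets 9 held one. The limits used set apart about 1 in 20 by chance when values are normally distributed. CPM near 0 need not be, so that rate may not hold here. Gal gave 4 of the 9. In the treated Sarm1-/- group mouse 61926 was at 13.01 CPM with the others at 0.588 to 2.02 CPM, among Sarm1-/- PBS retinas mouse 61561 was at 1.515 CPM with the others at 0.403 to 0.744 CPM, and among TNF retinas at day 14 mouse 59829 was at 1.807 CPM with the others at 0.138 to 0.469 CPM. Lens markers summed to 5559, 5052 and 5878 CPM in these 3 retinas, the highest sums of the series, and their part in the Gal values was not tested. The next highest sum, 4382 CPM, was in the IL1A+TNF eye of mouse 61721. That eye was not set apart for Gal, but it held the highest Gal of its group, 2.89 CPM against a group median of 1.57 CPM. After that sum came 4246 CPM in the day 2 PBS eye of mouse 60033, in a group with Gal of at most 0.881 CPM. The IL1A+TNF retina of mouse 60780 in batch 1 was low in Gal, at 0.8034 CPM with the others at 1.54 to 2.34 CPM.

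Sprr1a gave 3 of the 9. The PBS retina of mouse 61721 in batch 2 was at 6.233 CPM (others 0.174 to 0.727 CPM) and the TNF retina of mouse 60585 at day 2 was at 2.081 CPM (others 0.0491 to 0.657 CPM). Cornea and conjunctiva markers summed to 141 and 63.4 CPM in them, the highest of their groups, and their part in the Sprr1a values was not tested. Those markers also summed to 174 CPM in the PBS eye of mouse 61561 and 150.5 CPM in the IL1A+TNF eye of mouse 61721. Neither eye was set apart for Sprr1a. The eye of mouse 61561 held the highest Sprr1a of its group, 1.40 CPM, and the group of the other eye reached 2.64 CPM. The highest cornea and conjunctiva sum, 222 CPM, was in the IL1A+TNF eye of mouse 61926. The treated eyes of mice 61924, which was not over 50 CPM in those markers, and 61926 held 9.27 and 11.3 CPM of Sprr1a, the highest of the series. At day 35 the PBS retina of mouse 59730 was at 0.07266 CPM from 3 counts, with the others at 0, where any single value above 0 is set apart. The remaining sets were Gap43 in the IL1A+TNF retina of mouse 60212, at 34.51 CPM with the others at 24.0 to 29.5 CPM, and Ecel1 in the TNF retina of mouse 59736 at day 35, at 1.559 CPM with the others at 0.713 to 1.01 CPM.

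In tests of a difference between effects, 2 passed in limma. The IL1A by TNF interaction of Sprr1a was 2.05 on the log2 scale (FDR = 0.0281), and the genotype by treatment interaction of Adcyap1 was -0.82 (FDR = 0.0173). Both calls were lost in edgeR and in DESeq2.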

How the results depend on the processing

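No direction of a called value turned under any alternative run, and the counts of genes called after IL1A+TNF in WT batch 1 (7), after TNF at each day (0) and between genotypes in PBS retinas (0) stayed within 1.5 times under all of them. With mouse as a fixed replicate block, IL1A against PBS kept 2 of 4 calls (Sox11 FDR = 0.0771, Klf6 FDR = 0.0511), and IL1A+TNF against IL1A, IL1A against TNF and both interactions kept 0, where of all genes 0, 1, 0 (IL1A by TNF) and 24 (genotype by treatment) were called. The block changed no other count of calls by more than 1.5 times, though the call of Klf6 in WT batch 2 was lost (FDR = 0.0908). Without a filter on low counts IL1A against TNF kept 1 call. edgeR gave 0 for both interactions. DESeq2 gave 0 for the genotype interaction, and its IL1A by TNF interaction called Klf6 (0.33, FDR = 0.0414) in place of Sprr1a. Batch 2 alone gave 4 calls in Sarm1-/-, 1 between genotypes in IL1A+TNF retinas and 0 for the genotype interaction (over all genes 6064, 129 and 0 of 19668 by limma). Without retinas low in ganglion cell markers these were 3, 0 and 0 (over all genes 2581, 182 and 0 of 20479 by limma), and WT batch 2 had 5 (7374 of 19839). Without retinas high in cornea markers, 1 call between treated genotypes and 0 for the genotype interaction were left. Without those high in lens markers, both interactions had 0 and WT batch 2 had 5. Leaving out each mouse gave 6 to 7 calls after IL1A+TNF (6 without 60212), 4 to 4 after IL1A, 0 to 0 after TNF at day 2, 5 to 8 in Sarm1-/- (5 without 61926), 0 to 0 between genotypes in PBS, 1 to 5 between treated genotypes (1 without 61924 or 61926, 4 without 62221, 5 without 61561), 0 to 1 for the genotype interaction (0 without 61765, 61924 or 61926) and 2 to 3 in WT batch 2. Of the values of single genes, 62 lost and 22 gained a call under an alternative, 86 moved and 1741 stayed the same. For a fold change, moved means a change of sign without a call in either fit. Both of the last counts include mean levels compared with CPM on library totals, which moved if the means differed by the SD or more. At the lowest depth 10 counts are 0.333 CPM, which limits Sprr1a and Gal most.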
